A study of Brassica napus with 23 samples.

Results

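Roots of Brassica napus that had received the bacterium Pseudomonas chlororaphis PA23 were compared with roots that had received LB broth, 24 h after treatment. The comparison rests on 5 of the 23 libraries of the series, chosen by their labels: 3 libraries of PA23-treated roots (replicates 1, 2 and 3) and 2 of control roots (replicates 2 and 3). Of the 101040 genes deposited, 63551 passed the filter on low counts and were tested, and 170 of these differed. Brassica napus (oilseed rape) is an allotetraploid with an A and a C subgenome, so most genes exist in near-identical copies. Treated plants were given 15 mL of PA23 culture, and treatment took place 7 days after planting. The other 6 groups, used here for the level of the same genes, are PA23-treated and control roots 7 d after treatment and PA23-treated and control shoots 24 h and 7 d after treatment, with 3 libraries each. The 6 libraries of 7 d roots also entered the fit that called the 170 genes. They share its filter, its scaling and its estimate of the spread. The cultivar, the number of plants behind a library and whether replicates came from separate plants were not found in the labels. The p-values therefore measure the spread between the 11 root libraries of that fit only, which may be technical.

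Strain PA23 is a root-colonising bacterium studied as a biocontrol agent on oilseed rape, where it acts against fungal pathogens such as Sclerotinia sclerotiorum through antibiotics that include pyrrolnitrin and phenazines. Plant roots sense bacteria through cell-surface receptors for microbial molecules such as flagellin, and the usual early response includes transcription of defence, cell wall and hormone genes. Bacteria that live on roots can also prime defence in the rest of the plant, which is known as induced systemic resistance. These statements are background: the gene IDs of the deposited table carry no description, and of the 170 genes called below 4 matched a symbol of the RefSeq table, which for these is the ID itself. No gene could thus be given a function, none of the 9 gene lists written by function could be filled, and the tissue label could not be checked against root markers. In whole roots, fewer cells of a type and less RNA per cell cannot be told apart.

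The 3 PA23 libraries held 721, 25 and 75.6 M counts (replicates 1, 2 and 3), against 45.8 and 60.3 M in control replicates 2 and 3. All 5 were deep, but the deepest held 28.8 times the counts of the shallowest. Of the other 6 root libraries, harvested at 7 d, 2 held under 2 M counts. Between 29.2% and 33.6% of counts from 1 to 10 were odd in the 5 libraries, so most low counts came in even steps and a count is not 1 independent molecule. PA23 7 d replicate 1 stood apart, with 57.6% odd, against 18.9% to 33.6% in every other library of the series. That library was part of the fit over all root libraries that called the genes. Without it 304 genes were called at 24 h, 167 of the 170 among them. Whether its odd counts played a part in this change was not tested. The library names in the labels open with one of 2 code numbers, whose meaning is not stated: PA23 replicate 1 and control replicate 3 carry the lower code, and the other 3 libraries carry the higher code. Over the 63551 genes tested, Spearman correlations were 0.978 to 0.99 among the PA23 libraries, 0.981 between the controls and 0.963 to 0.981 between a PA23 library and a control. PA23 replicates 2 and 3 were the closest pair: among genes with 10000 to 100000 counts in the pair, the log2 ratio between them had an SD (from the median absolute deviation) of 0.09, against 0.18 to 0.23 in the other 3 pairs of replicates. Their squared differences were still 12.8 times those of counting alone (median over genes), with each count taken as independent. They were kept as separate libraries as labelled, although an excess over counting noise does not show that they are independent replicates, and 26 genes were called with the pair summed.

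PA23-treated roots differed from control roots in 170 genes, 93 higher and 77 lower (group means fitted over all 11 root libraries with edgeR's quasi-likelihood test, with a Benjamini-Hochberg adjusted p under 0.05). These are 0.268% of the genes tested, 0.146% for the higher and 0.121% for the lower direction. The higher genes together made up 0.497% to 0.536% of all counts in the PA23 libraries, against 0.199% and 0.221% in the controls. The lower genes made up 0.134% to 0.14% in the PA23 libraries, against 0.331% and 0.373% in the controls. The median log2 fold change, PA23 over control, was 1.76 for the higher genes (quartiles 1.31 and 2.61) and -1.61 for the lower genes (quartiles -2.36 and -1.26), beside 0.05 over all genes tested. A change of at least 4-fold was fitted for 36 higher and 31 lower genes, and one of at least 8-fold for 20 higher and 8 lower genes. All 170 showed no overlap between the 3 PA23 and the 2 control libraries, a pattern that 45.2% of all genes tested also showed, 25.5% with PA23 higher and 19.7% with PA23 lower. Which direction held more calls turned with the processing: RLE size factors gave 85 higher and 94 lower, DESeq2 256 and 458, halved counts 328 and 547, and the 5 libraries of 24 h alone 2574 and 3092. It turned without control 7 d replicate 1 as well (220 higher and 442 lower) and without control replicate 3 (20 and 68).

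**Figure D1:**
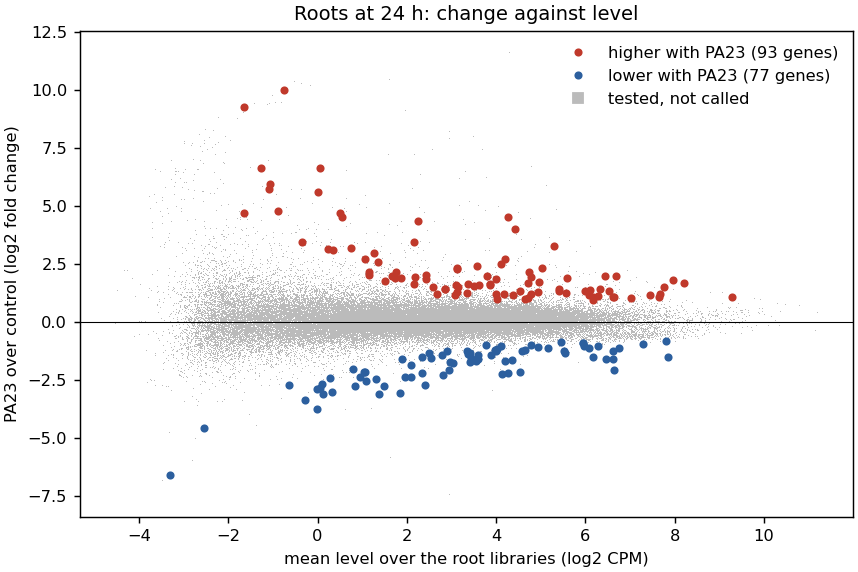
Log2 fold change of PA23-treated over control roots at 24 h (vertical axis) against the mean level over the 11 root libraries in log2 CPM (horizontal axis), 1 point per tested gene. The 93 higher genes (red) and 77 lower genes (blue) cover low and high levels, and fitted changes beyond 8-fold lie mostly at low levels.

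Single libraries, treated and control, weighed heavily on these calls. With PA23 replicate 3 left out 15 genes were called, with PA23 replicate 2 left out 21, with control replicate 2 left out 28 and with control replicate 3 left out 88. Of the 170 genes, 15, 21, 23 and 35 were among those calls. Without PA23 replicate 1 there were 145 calls, with 112 of the 170 among them. A fit without a control leaves that arm with 1 library, which is then assumed to vary like the other groups. In the other direction, 662 genes were called when control 7 d replicate 1 was left out, 454 when control 7 d replicate 2 was and 304 when PA23 7 d replicate 1 was. The 7 d libraries are in neither 24 h group, but they share the filter, the scaling and the estimate of the spread with them (62372 genes were tested without control 7 d replicate 1). With only the 5 libraries of 24 h there were 5666 calls, and 166 of the 170 genes were among them. All 170 genes kept their direction in the fits in which they were tested, which their lack of overlap between the 24 h groups largely fixes.

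**Figure D2:**
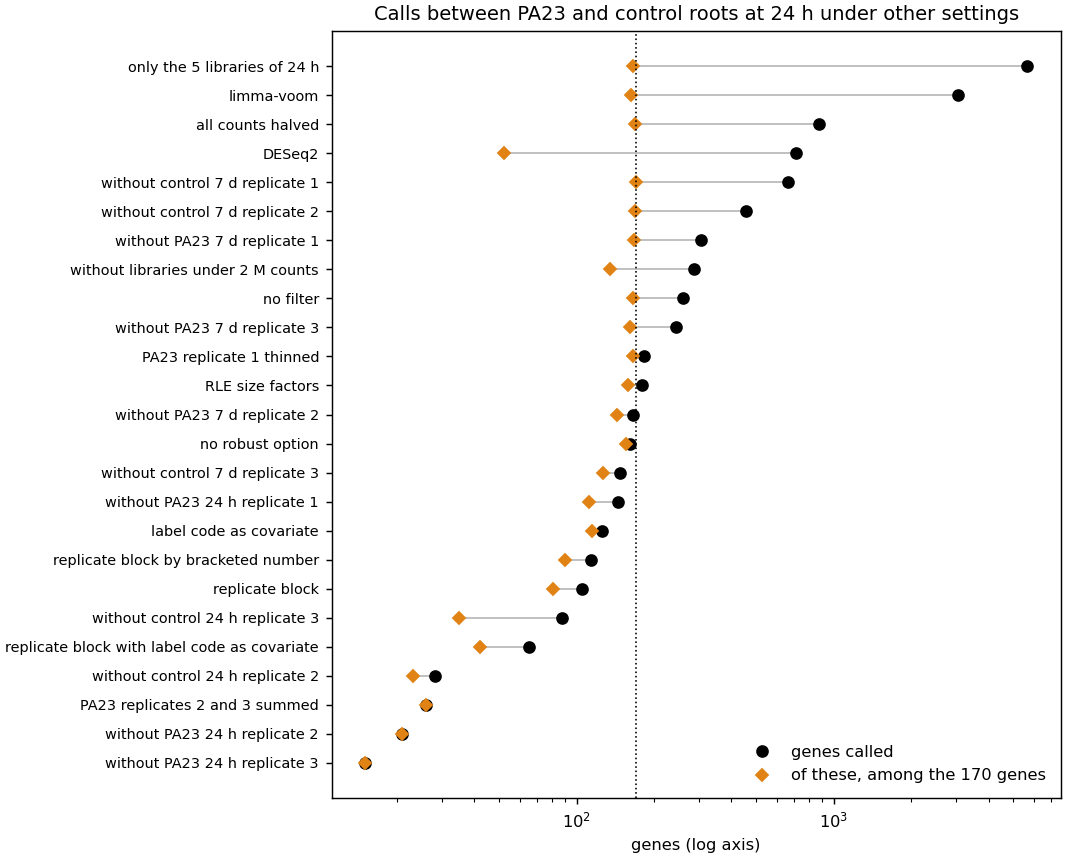
Number of genes called between PA23-treated and control roots at 24 h (black, log axis) and number of the 170 genes among them (orange) in each alternative fit, 1 row per fit. The dotted line marks the 170 calls. The lowest counts belong to fits without PA23 replicate 2 or 3 or without control replicate 2, and to the fit with PA23 replicates 2 and 3 summed (26 calls).

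Of the 170 genes, 8 passed the threshold in each of the 5 fits that left out 1 library of 24 h, 3 of them higher and 5 lower. A further 7 passed in 4 of these fits and 5 in 3, while 52 passed in none. The 8 are described first. The rule for named genes picked 5 of them, by the smallest p among abundant genes or by the difference between harvests. The remaining members, BnaA05g00480D, BnaC09g41020D and BnaC01g18300D, were chosen after their values were seen.

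BnaA03g34190D (chromosome A03, 16648062 to 16649690, plus strand; coordinates as deposited, on a build that the labels do not name) stood at 249, 249 and 270 CPM in PA23 replicates 1 to 3, against 80.6 and 65.8 CPM in control replicates 2 and 3 (CPM, counts scaled to a common library size with TMM factors). Every PA23 library held more than 3 times the level of either control. Its log2 fold change was 1.81 (SE 0.20, edgeR adjusted p = 0.00165), 1.92 within the lower code and 1.69 within the higher code. It was called in all 25 alternative fits. At 7 d it lay at 233 to 332 CPM with PA23 and at 290 to 389 CPM in controls. The 24 h controls were thus the low group among roots, and the gene was almost silent in shoots, with at most 0.0543 CPM in any of the 12 libraries.

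BnaA01g28080D (A01, 19601025 to 19602969, minus strand) was named for its difference between harvests, described further on, and also rose at 24 h. It reached 390, 452 and 484 CPM in PA23 roots, against 147 and 130 CPM in control roots. The groups lay far apart relative to their spread, 442 ± 48.2 CPM (SD, n = 3) with PA23 and 138 ± 12.7 CPM (SD, n = 2) in controls. The log2 fold change was 1.67 (SE 0.20, edgeR adjusted p = 0.00273), 1.59 within the lower code and 1.67 within the higher code, and the gene was called in all 25 alternative fits. At 7 d the order of the groups was the opposite, 216 ± 34 CPM with PA23 and 339 ± 62.7 CPM in controls (SD, n = 3 each), a difference that did not pass the threshold (edgeR adjusted p = 0.614).

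BnaA05g36800D (A05_random, a sequence assigned to A05 without a position in its order, 2701212 to 2703949, plus strand) had the largest change of the 8. It stood at 7.6, 13.6 and 11.8 CPM in PA23 roots, against 0.597 and 0.755 CPM in control roots. PA23 replicate 1 was the lowest treated library and still lay far above the higher control. The log2 fold change was 3.99 (SE 0.39, edgeR adjusted p = 0.00133), 3.17 within the lower code and 4.19 within the higher code. In both 7 d root groups the level was higher again, 42.2 ± 10.6 CPM with PA23 and 28.9 ± 11.8 CPM in controls (SD, n = 3 each).

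The lower gene with the most counts was BnaA06g11500D (A06, 5978624 to 5979746, plus strand). It stood at 60.1, 65.7 and 64 CPM in PA23 roots, against 230 and 148 CPM in control roots. The 3 treated libraries were nearly equal and the controls differed from each other 1.55-fold. Its log2 fold change was -1.58 (SE 0.19, edgeR adjusted p = 0.00303), with -1.30 within the lower code and -1.82 within the higher code, and the gene was called in all 25 alternative fits. At 7 d both groups lay at the level of the treated 24 h roots, 62.4 ± 9.67 CPM with PA23 and 65.6 ± 8.76 CPM in controls (SD, n = 3 each).

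BnaC03g49940D (C03, 34750951 to 34753041, plus strand) stood at 8.68, 8.47 and 10.4 CPM in PA23 roots, against 61.6 and 26.5 CPM in control roots. Its controls were far apart, 2.32-fold, so its size is uncertain although both were above every treated library. The log2 fold change was -2.26 (SE 0.27, edgeR adjusted p = 0.00303), -1.60 within the lower code and -2.69 within the higher code. It was -1.56 without control replicate 2 and -2.77 without control replicate 3. At 7 d the level was 9.74 ± 2.37 CPM with PA23 and 13.7 ± 2.6 CPM in controls (SD, n = 3 each).

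BnaA05g00480D (A05, 226700 to 227125, minus strand, a span of 426 bases) stood at 2.92, 3.99 and 3.35 CPM in PA23 roots, against 18.4 and 14.3 CPM in control roots. Here the groups were narrow and far apart. The log2 fold change was -2.28 (SE 0.24, edgeR adjusted p = 0.00133), nearly the same within the lower code (-2.26) and the higher code (-2.30). BnaC09g41020D (C09, 43205082 to 43206940, plus strand) stood at 1.76, 1.5 and 1.84 CPM in PA23 roots, against 7.66 and 14.9 CPM in control roots. Its log2 fold change was -2.71 (SE 0.30, edgeR adjusted p = 0.00165), with -3.01 within the lower code and -2.14 within the higher code. BnaC01g18300D (C01, 12741076 to 12742425, minus strand) stood at 0.893, 0.664 and 0.994 CPM in PA23 roots, against 4.65 and 7.19 CPM in control roots. It had the fewest counts of the 8, 16 in PA23 replicate 2, and its log2 fold change was -2.77 (SE 0.37, edgeR adjusted p = 0.0057). Within the lower code its value was -2.88 and within the higher code it was -2.35.

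DESeq2 called 3 of these 8 genes and gave the other 5 no adjusted p. All 8 shared one feature across the root groups. The 2 control libraries of 24 h lay on one side of all 9 other root libraries, those of 7 d included. Because the same controls entered the choice of the genes, this order is a description and not a separate result.

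**Figure D3:**
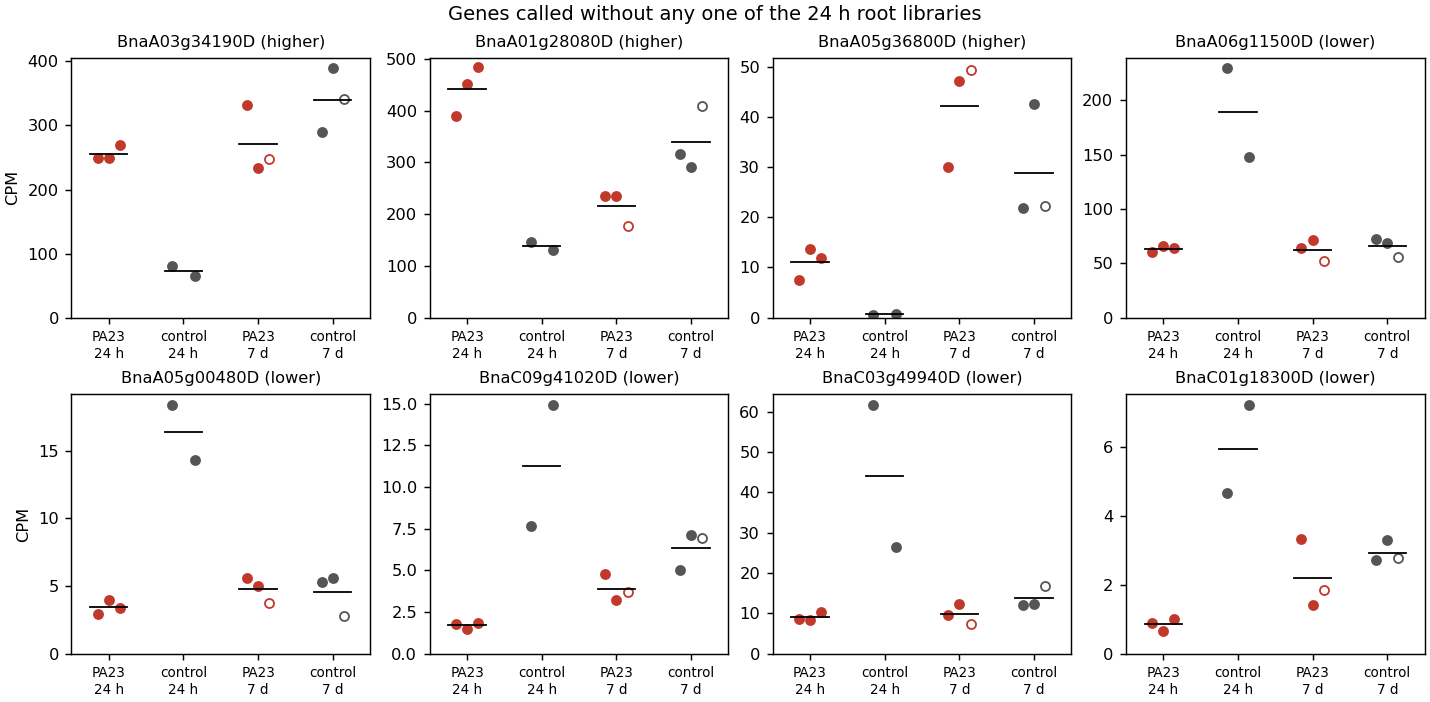
Level in CPM (vertical axes, from 0) of the 8 genes called without any one of the 24 h libraries, in the 11 root libraries. Each point is a library, PA23 in red and control in grey, open where the library held under 2 M counts, and black lines are group means. In every panel the 2 control points of 24 h lie outside the range of the other 9 points.

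The same order was counted over all 170 genes, with the 4 root libraries of 7 d that held over 2 M counts. In 73 of the 170 genes (42.9%, against 10.7% of all genes tested) both 24 h controls lay outside the range of the 3 PA23 libraries and the 4 libraries of 7 d, while the PA23 libraries did not stand apart. In 52 genes (30.6%, against 13.4% of those tested) the 3 PA23 libraries lay outside the range of the controls and the 7 d libraries, and the controls did not. In 43 genes (25.3%, against 0.554%) the 7 d levels lay between the 24 h groups. The remaining 2 genes had no such order. A gene with a wide gap between the 24 h groups falls into one of these kinds more easily, so the shares were not tested against those of all genes.

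Seen as a median over each set, the 93 higher genes lay at 11.8, 15.5 and 16.1 CPM in PA23 roots and at 4.45 and 4.46 CPM in control roots at 24 h. At 7 d the same median was 10.2 to 12.5 CPM with PA23 and 12.4 to 14.1 CPM in controls, near the treated 24 h roots in both groups. The 77 lower genes lay at 6.73, 6.69 and 6.61 CPM in PA23 roots and at 19.8 and 16.1 CPM in control roots at 24 h. At 7 d their median was 6.51 to 9.59 CPM with PA23 and 7.81 to 11.1 CPM in controls. Over all genes tested the median was 5.11 to 5.31 CPM in the PA23 libraries and 5.01 and 5.18 CPM in the controls at 24 h. In shoots both sets were low, with medians of 0 to 0.778 CPM for the higher genes and 0 to 1.12 CPM for the lower genes over the 12 libraries.

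**Figure D4:**
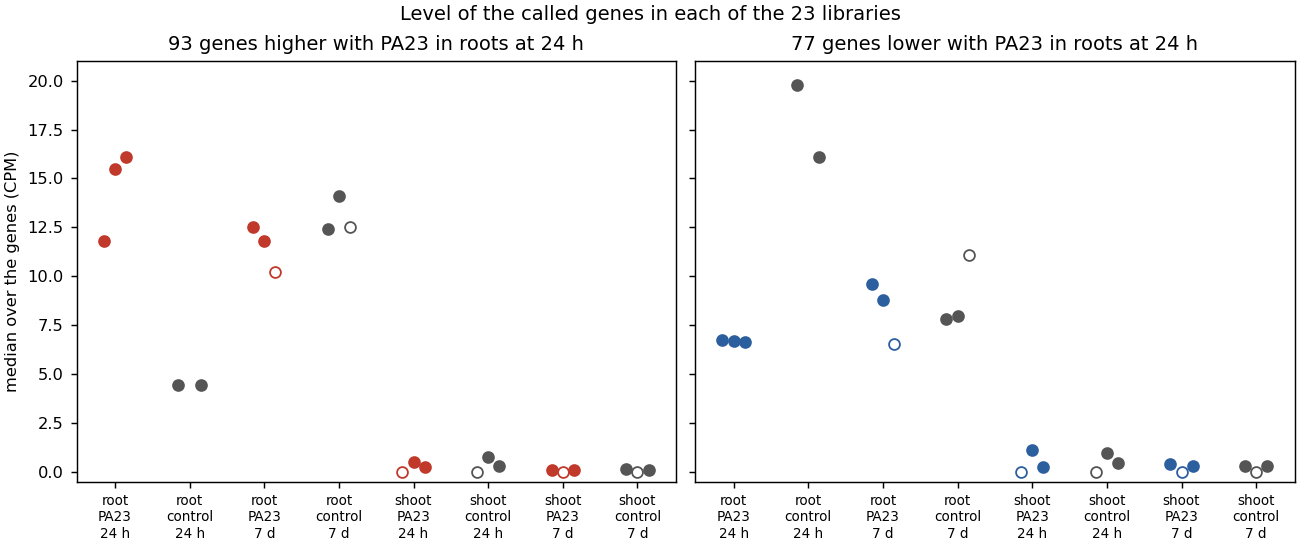
Median level in CPM (vertical axis) of the 93 higher genes (left) and the 77 lower genes (right) in each of the 23 libraries, 1 point per library, by group. PA23 is coloured, control is grey and open points are libraries under 2 M counts. Among roots, the 2 control libraries of 24 h hold the lowest medians on the left and the highest on the right, and all shoot libraries lie below every root library.

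Both sets consisted largely of genes with more counts in root than in shoot, as read from the 7 d controls. These are in neither 24 h group, although the 7 d root controls were in the fit that called the genes. Mean CPM in control roots at 7 d was at least 4-fold that in control shoots (0.1 CPM added to each) for 61 of the 93 higher genes (65.6%) and 43 of the 77 lower genes (55.8%), against 22.3% of all genes tested. The reverse, 4-fold more in shoots, held for 4 higher genes (4.3%) and 3 lower genes (3.9%), against 7.7% of those tested. The median log2 ratio of root over shoot was 4.21 for the higher and 2.68 for the lower genes, beside 0.71 over all. TMM factors were computed within each tissue, so root and shoot CPM are not on one shared scale. The means include control root 7 d replicate 3 (0.622 M counts) and control shoot 7 d replicate 2 (1.7 M counts). The genes tested were filtered on root libraries only.

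The same genes were followed in the other groups, which share no library with the 24 h roots. In roots at 7 d, without the libraries under 2 M counts, the ratio of PA23 over control means was above 1 for 19 of the 93 higher genes (20.4%, against 49.1% of all genes tested), with a median log2 ratio of -0.32. Of the 77 lower genes 38 were above 1 (49.4%), with a median of -0.00285. A 7 d ratio of at least 2-fold in either direction was seen in 3 higher genes (3.23%) and 1 lower gene (1.3%), near the 2.28% of all genes tested. With the libraries under 2 M counts it was seen in 8 (8.6%) and 3 (3.9%), against 13.2% of those tested, and 28 of the 93 (30.1%) and 33 of the 77 genes (42.9%) lay above 1, against 53.6%. An unadjusted edgeR p under 0.05 for the 7 d effect was more frequent in both sets. It was found for 25 higher genes (26.9%) and 13 lower genes (16.9%), against 6.97% of those tested. The fit that gave it also called the genes, with the same estimate of the spread. In shoots at 24 h, without the libraries under 2 M counts, 25 of the 93 higher genes (26.9%) and 30 of the 77 lower genes (39%) had a ratio above 1, against 47.2% of all genes tested. A ratio of at least 2-fold in either direction was seen in 12 (12.9%) and 14 (18.2%), against 2.84%. With all shoot libraries of 24 h it was seen in 10 (10.8%) and 12 (15.6%), against 8.32%. Among the shoot controls of 24 h with over 2 M counts, replicate 2 stood apart. Its median over the higher genes was 0.778 CPM, against 0.283 CPM in replicate 3. Most of these genes were low in shoots. In shoots at 7 d, again without those libraries, 20 of the 93 higher genes (21.5%) and 37 of the 77 lower genes (48.1%) had a ratio above 1, against 43.6% of all genes tested. With all shoot libraries of 7 d these were 42 (45.2%) and 46 (59.7%), against 44.5%. For the higher genes in 7 d shoots, the share above 1 thus depended on libraries under 2 M counts.

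Whether the effect differed between the harvests was tested directly. Of the 170 genes, 69 also passed the test of the difference between the 7 d and the 24 h effect, 47 of the higher genes (50.5%) and 22 of the lower genes (28.6%), against 0.382% of all genes tested (243 genes, edgeR adjusted p under 0.05). In all 47 and all 22 the 7 d effect was shifted against the direction of the 24 h effect. The 24 h libraries enter both tests, and the 24 h effect enters the difference with its sign reversed. Genes with a large 24 h effect thus pass the second test more easily and mostly in that direction. The shared direction is therefore no separate result. With RLE size factors in place of TMM, 319 of 566 differences were higher at 7 d, against 94 of 243 with TMM. Single libraries moved the 243 strongly. With PA23 7 d replicate 1 left out there were 2901, with control 7 d replicate 1 left out 1484, and with PA23 7 d replicate 3 left out 119. Leaving out PA23 24 h replicate 1 gave 42 and leaving out control 24 h replicate 2 or 3 gave 23 or 11. The count was 10 if control 7 d replicate 3 was left out, 6 if PA23 24 h replicate 2 or 3 was and 3 if PA23 7 d replicate 2 was. Without both 7 d libraries under 2 M counts edgeR called 0 differences, with 13108 genes at an unadjusted p under 0.05 (with all libraries DESeq2 called 1914 and limma-voom 2147).

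Among the called genes, the difference towards a lower 7 d effect with the smallest p was that of BnaA01g28080D, described above, at -2.30 (SE 0.26, edgeR adjusted p = 0.0073). It passed in all 11 fits that left out 1 root library (adjusted p up to 0.0467) but not without the libraries under 2 M counts (0.0524). The one with the smallest p towards a higher 7 d effect was that of BnaC08g43530D (C08, 37199021 to 37199657), at 1.81 (SE 0.25, edgeR adjusted p = 0.0161). At 24 h BnaC08g43530D stood at 13.3, 13.5 and 12.4 CPM in PA23 roots, against 27.5 and 34.4 CPM in control roots. The treated libraries were tightly grouped below both controls, with a fitted change of -1.25 (log2 scale; SE 0.18; edgeR adjusted p = 0.00799), -1.36 within the lower code and -1.08 within the higher code. At 7 d it was 33.9 ± 6.38 CPM with PA23 and 22.1 ± 0.864 CPM in controls (SD, n = 3 each), and it was about as abundant in shoots, with group means of 24 to 36.1 CPM. Its 24 h call was lost without control replicate 3 (edgeR adjusted p = 0.0715) and without PA23 replicate 3 (0.0579), and its difference without control 24 h replicate 3, PA23 24 h replicate 2 or 3, or PA23 7 d replicate 2 (adjusted p up to 0.0893).

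Genes with almost no counts in the controls made up a small part of the higher set. In 7 of the 93 genes the controls together held at most 3 counts. BnaC02g45000D (C02_random, 819384 to 820702) had 0 counts in both controls and 0.876, 1.83 and 1.45 CPM in PA23 replicates 1 to 3, at least 31.7-fold higher when 3 counts over both controls (0.0283 CPM) are taken as the floor. Its edgeR adjusted p was 0.0123 with all libraries, and up to 0.135 in the 4 fits that left out control replicate 2 or 3 or PA23 replicate 2 or 3, where the call was lost. The other gene with 0 counts was at least 20.7-fold higher. BnaC05g31640D (C05, 31095270 to 31098404) had 3 counts in the controls and 1.59, 4.86 and 2.93 CPM with PA23, a ratio of pooled counts of 59.9 (95% counting interval 20.5 to 291; edgeR adjusted p = 0.00799, and 0.0739 without control replicate 3). These genes were low even in treated roots, and those named were chosen after their values were seen. PA23 replicate 1, the deepest library and the lowest treated one for BnaC05g31640D, holds most of the pooled depth and so sets most of that ratio. Intervals and floors cover counting error only. They take each count as independent, although most low counts came in even steps, so they may be too narrow even for that.

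PA23 replicate 1 tended to be the least changed of the treated libraries among the higher genes. It was the lowest of the 3 in 63 of the 93 genes (67.7%), against 33.9% of all genes tested, and PA23 replicate 2 was lowest in 19 and replicate 3 in 11. Among the lower genes the order was closer to that of all genes: replicate 1 was the highest, and so the least changed, in 32 of 77 (41.6%), against 36.4% of those tested. Replicate 1 also differs from the others by label code, by depth and by the first number of its bracketed label (2, against 1), which cannot be told apart. Within the lower code, which holds replicate 1 and control replicate 3, the median log2 ratio was 1.56 for the higher genes (0.82 to 4.63) and -1.55 for the lower genes (-3.29 to -0.77). Within the higher code, with PA23 replicates 2 and 3 against control replicate 2, it was 1.77 (0.79 to 4.60) and -1.77 (-3.75 to -0.73). Under both codes every gene kept its direction, as the lack of overlap between the groups requires.

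Gene span, the distance between the start and end coordinates with introns included, differed between the sets. Of the 77 lower genes 36 (46.8%) spanned under 1000 bases, and of the 93 higher genes 12 (12.9%), against 17.6% of the genes tested. The median span was 1118 bases for the lower and 2175 bases for the higher genes, beside 1920 bases over all. The whole table leaned the same way. The median log2 fold change of PA23 over control was -0.14 for all tested genes under 1000 bases, -0.05 from 1000 to under 2000, 0.11 from 2000 to under 4000 and 0.24 from 4000 bases up (11157, 22214, 22562 and 7618 genes). Between replicates of 1 group the medians of the same span classes stayed between -0.04 and 0.05. Lower calls made up 0.323% of tested genes under 1000 bases and 0.0394% of those from 4000 bases up, and higher calls 0.108% and 0.21%. The part of gene span in these calls was not tested.

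**Figure D5:**
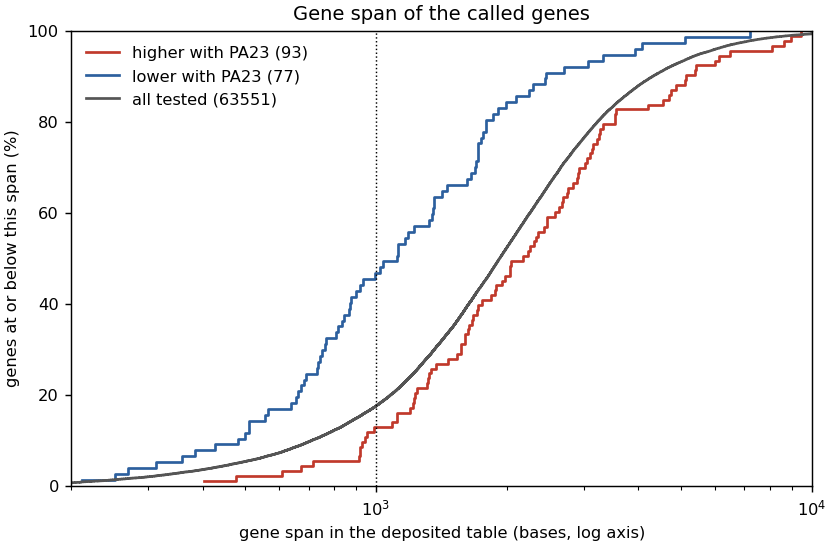
Cumulative share of genes (vertical axis, %) by gene span in bases (horizontal axis, log) for the 93 higher genes, the 77 lower genes and all 63551 tested genes. The dotted line marks 1000 bases, below which lie 12.9%, 46.8% and 17.6% of the genes.

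The called genes were spread over all 19 chromosomes and the unplaced sequences. The share of tested genes called ran from 0.0917% on A10 (2 of 2180) to 0.575% on A04 (11 of 1914), each chromosome taken with its unordered sequences. Lower genes were 77 of all 170 calls, 9 of 11 on C08 and 9 of 13 on C01, while on C05 9 of 12 were higher genes. These chromosomes were picked after their values were seen. Others with fewer calls were as uneven, in both directions, and direction by chromosome was not tested. Some called genes were neighbours: 17 of the 170 lay within 5 places of another called gene, in 8 groups spanning 8754 to 30522 bases. In 5 of these groups all members were higher and in 2 all were lower. How often neighbours occur among as many genes taken from all those tested was not counted, so no excess can be read from these numbers. BnaA01g28080D was in one of them, 3 places from a second higher gene.

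The remaining group, on C08, held 3 genes within 30522 bases that moved in both directions and were silent or nearly so in most other samples (chosen after their values were seen). BnaC08g18680D (21758350 to 21760047, minus strand) stood at 0.816, 1.66 and 1.45 CPM in PA23 roots, against 8.54 and 4.79 CPM in control roots (log2 fold change -2.39, SE 0.39, edgeR adjusted p = 0.0164). BnaC08g18720D (21781221 to 21782137, plus strand) stood at 0.775, 1.25 and 1.27 CPM in PA23 roots, against 0 and 0.0172 CPM in control roots, where it had 1 count in all (ratio of pooled counts 82.7, 95% counting interval 14.8 to 3270; edgeR adjusted p = 0.0136). BnaC08g18740D (21787959 to 21788871, plus strand) stood at 1.1, 0.997 and 1.95 CPM in PA23 roots, against 0.0443 and 0.0515 CPM in control roots (log2 fold change 4.78, SE 0.75, edgeR adjusted p = 0.0181). The first was thus higher in control roots and the other two higher in PA23 roots. The 24 h call of the first was lost when PA23 replicate 2 or 3 or control replicate 2 was left out (edgeR adjusted p up to 0.349), and that of the other two also without control replicate 3 (up to 0.201 and 0.235). At 7 d none of the 3 exceeded 0.0952 CPM in any root library, and in the 12 shoot libraries the highest value was 0.0352 CPM. The labels do not say how reads shared by near-identical neighbours or by A and C copies were counted, which leaves the split among these genes uncertain.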

How the data were processed

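RNA of shoots and roots was sequenced, and the authors deposited unscaled whole-number counts for each gene. Per the submitters' processing notes HISAT2 and DESeq2 were used; their versions, the counter, the build, any strand setting and the gene models were not given in the sources used here. The length in the deposited table equals end minus start plus 1 for all 101040 genes. The test was edgeR's (4.0.16, R 4.3.3; filterByExpr, TMM, robust quasi-likelihood, Benjamini-Hochberg adjusted p with a threshold of 0.05) in 1 fit of the 11 root libraries with 4 group means. SE is the log2 fold change divided by the square root of F. Alternatives used limma 3.58.1 (voom), DESeq2 1.42.0, RLE scaling, no filter, other sets of libraries and added covariates. The edgeR steps were tested on simulated data, where 23 of 50 2-fold, 47 of 50 4-fold and 50 of 50 8-fold changes were recovered. Of 181 calls 11 were false. The simulated counts were independent, with a spread set by level alone, so they lack the even steps and the close pair of replicates seen here. TMM factors for CPM were computed separately for root and shoot libraries. Ratios within a label code, and those between group means, used CPM plus 0.1. Named genes were the 2 higher and 2 lower genes with the smallest p among non-overlapping calls with a mean log2 CPM of 3 or more, and the called gene with the smallest p of the harvest difference in each direction. A further part of that rule, for genes with a RefSeq description, named none, and the 9 gene lists by description stayed empty (Da-Ae table). The comparison and rules were chosen with earlier results of these data known. Plants grew 14 days per the labels, which also give treatment on day 7 for the 24 h harvest.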

Additional observations from a re-analysis of the deposited data

Results flagged for a closer look

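The effect of PA23 on 6 named genes differed between the harvests by the test of the difference itself (7 d effect minus 24 h effect on the log2 scale, edgeR adjusted p under 0.05). The difference was -3.57 for BnaA05g36800D (SE 0.48, edgeR adjusted p = 0.0161), -2.13 for BnaA03g34190D (SE 0.26, adjusted p = 0.0102) and -2.30 for BnaA01g28080D (SE 0.26, adjusted p = 0.0073). It was 1.98 for BnaC03g49940D (SE 0.40, adjusted p = 0.0455), 1.5 for BnaA06g11500D (SE 0.27, adjusted p = 0.0367) and 1.81 for BnaC08g43530D (SE 0.25, adjusted p = 0.0161). The first 3 rose and the other 3 fell with PA23 at 24 h, and each was chosen for that effect or for this difference. No group held enough libraries for a check of single outlying libraries. Without both 7 d root libraries under 2 M counts none of the 6 differences passed (edgeR adjusted p 0.0524 to 0.0776). In the 11 fits that left out 1 root library, that of BnaA01g28080D passed in 11, that of BnaA03g34190D in 10 (not without control 24 h replicate 3, adjusted p = 0.054), and those of BnaA05g36800D and BnaC08g43530D in 7. BnaA05g36800D missed the threshold without either 24 h control, control 7 d replicate 3 or PA23 7 d replicate 2 (adjusted p up to 0.069), and BnaC08g43530D without control 24 h replicate 3, PA23 24 h replicate 2 or 3 or PA23 7 d replicate 2 (up to 0.0893). The difference of BnaA06g11500D passed in 5 and missed without control 24 h replicate 2, control 7 d replicate 3, any PA23 24 h library or PA23 7 d replicate 2 (up to 0.16). That of BnaC03g49940D passed in 3 and missed without these or without control 7 d replicate 2 or PA23 7 d replicate 3 (up to 0.219). The differences of BnaC03g49940D and BnaA06g11500D also missed the threshold with the label code as covariate (adjusted p = 0.11 and 0.0799), with a replicate block (0.105 and 0.0583), with both (0.119 and 0.0652) and with PA23 24 h replicates 2 and 3 summed (0.109 and 0.104). BnaC08g43530D missed it with that pair summed (0.0737), and BnaC03g49940D without the robust option (0.0559) and with a block by bracketed number (0.076). No difference changed sign in these fits.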

How the results depend on the processing

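The 170 calls at 24 h became 714 with DESeq2, 3048 with limma-voom, 259 with no filter, 5666 with only the 5 libraries of 24 h, 286 without the libraries under 2 M counts, 875 with all counts halved and 26 with PA23 replicates 2 and 3 summed. Of the 170 genes these calls held 30.6%, 95.9%, 97.6%, 97.6%, 79.4%, 98.8% and 15.3%, and DESeq2 gave 118 of the 170 no adjusted p. Leaving out 1 library gave 15 to 662. A replicate block gave 105 and the block with the label code 65. The count stayed within 1.5 times of 170 with RLE size factors (179), without the robust option (161), with the label code (126), and, as fits added after the data were seen, with PA23 replicate 1 thinned (182) and a block by bracketed number (114). The 243 differences between harvests became 1914 with DESeq2, 2147 with limma-voom, 566 with RLE size factors, 545 with no filter, 135 without the robust option, 1414 with counts halved, 6 with the pair summed, 16 with the label code, 30 with a replicate block, 83 with block and code and 90 with the block by bracketed number. Without the libraries under 2 M counts edgeR called 0 (13108 genes had an unadjusted p under 0.05), and leaving out 1 library gave 3 to 2901. Same-numbered libraries of the 24 h groups deviated together weakly (correlations -0.0974 and 0.136 for numbers 2 and 3), and the numbers were not taken as pairs. The controls deviate from their mean as mirror images, so these correlations are not separate checks. The title and the bracketed label of control 24 h replicate 2 give different numbers, so its true partner, if any, is not known. Of the 6 named genes, BnaC08g43530D also lost its call with the pair summed (edgeR adjusted p = 0.0567) and with block and code (0.0968). The cause of these shifts was not tested. Fits without a library or with the pair summed also hold fewer samples, and calls rose in some of them and fell in others. Fits that left out 1 library of 7 d were also added for the 24 h comparison after the data were seen.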

Other observations

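Some genes that fell with PA23 in roots were also present in single shoot libraries. BnaA06g11500D stood at 12.8 CPM in shoot PA23 24 h replicate 2, against 0 and 0.349 CPM in replicates 1 and 3, and at 5.5 CPM in shoot control 24 h replicate 2, against 0 and 0.333 CPM in replicates 1 and 3. It also stood at 10.7 CPM in shoot PA23 7 d replicate 2, a library of 0.883 M counts, from 10 counts. BnaC09g41020D stood at 8.92 CPM in that PA23 library and 2.52 CPM in that control, and BnaC03g49940D at 6.65 and 3.11 CPM, while both lay at or under 0.233 CPM in the other shoot libraries of 24 h. The shoot libraries numbered 2 at 24 h thus held more of these 3 genes than those numbered 3. The genes were chosen after their values were seen, and others differed. BnaC01g18300D was lower in number 2 than in number 3 (0.0721 against 0.116 CPM with PA23, 0 against 0.0499 CPM in controls). BnaA05g00480D was lower with PA23 (0.273 against 0.698 CPM) but not in controls (0.543 against 0.516 CPM). The shoot libraries numbered 1 at 24 h held 1.1 M (PA23) and 1.41 M counts (control). For these a count of 0 allows up to 2.73 and 2.12 CPM, so their 0 does not show a lower level than that.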
